A study of Mus musculus with 6 samples.

Results

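Kinesins are motor proteins that use ATP to walk along microtubules or to take them apart at their ends. Mitotic kinesins build the spindle, move chromosomes and complete cell division, and their genes are known for being expressed late in the cell cycle. Transport kinesins carry vesicles, organelles and protein complexes through the cytoplasm, and in macrophages they serve the movement of lysosomes, endosomes and secretory vesicles.

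The family was taken from the deposited expression table by gene symbol, as every symbol that starts with Kif or Kifc followed by a number. That gave 45 of 25124 genes. Of these, 42 were kinesin motor genes: 13 mitotic, 17 transport, 11 with other or mixed roles, and Kifc5b, a close copy of Kifc1. The other 3 were Kif1bp, which encodes a protein that binds kinesins and is no motor, Kif16bos, an RNA gene beside Kif16b, and the pseudogene Kif4-ps. No measured value entered the choice of a gene. The family and its split into mitotic and transport members were nevertheless proposed with the M1 and M0 values of these samples known, so that all counts of changed members below are descriptions, without p-values.

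The RNA was that of RAW264.7, a line of mouse macrophages, cultured in 25 mM glucose. All samples were of the control line that had received a plasmid for the Cas9 nuclease with no guide RNA, made for comparison with E4BP4 knockout cells, and the labels do not say whether it is a single clone. The 3 M1 samples had been given LPS at 100 ng/ml and IFN-γ at 50 ng/ml, the 3 M0 samples neither, and the sources used here do not give the length of the treatment. The labels do not tie the replicates to separate cultures, so the spread between them may be technical.

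Libraries held 15615639 to 20283180 reads in genes. The 8 macrophage markers examined summed to 2934 to 3203 TPM in M0 and 2558 to 2592 TPM in M1 (a unit that corrects reads for the length of the transcript and the size of the library), whereas 8 markers of other cell types summed to 0.297 to 0.692 and 0.894 to 1.11 TPM. Among the 8 macrophage markers 3 were higher in M1 and 4 lower on TPM, beside 18.7% and 61.5% of all tested genes. Adgre1, the lowest of them in M0, had a mean of 2.73 TPM in M0 and 67.6 TPM in M1. All 6 M1 response markers, Nos2 and Tnf among them, were higher in M1, beside the same 18.7% of all tested genes. On the TPM scale most genes were lower in M1: the median log2 change of the 11297 tested genes was -0.31. Dividing by median-of-ratios factors, which use the typical gene as the reference, moved the typical change up by 0.34 (the median of all tested genes to 0.02), so both scales are given for the family. After this rescaling 4 of the 8 macrophage markers were higher and 2 lower, beside 38.1% and 35.4% of all tested genes. "Rose" and "fell" refer to TPM. In bulk RNA, fewer cells of a kind (such as dividing cells) and less RNA per cell cannot be told apart.

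Sequences from the start of the mitotic genes are shown first, because they show a property of the members into which no expression value entered. RefSeq promoters (GRCm38.p6, 250 bases before to 50 bases after the start) were found for 34 of the 45 genes, 12 of them mitotic, 11 transport and 9 other kinesins, beside Kifc5b and Kif16bos. The hexamer TTTGAA, searched on both strands, is known as the core of the cell cycle genes homology region, an element through which late cell cycle genes are controlled. It was present in 10 of the 12 mitotic promoters, 1 of the 11 transport promoters and 2 of the 9 others, against 17.9% of all 32851 promoters of this length in the table. In 8 of the 12 mitotic promoters it began within 50 bases of the start, as it did in 4.94% of all promoters. A match of letters describes the sequence and does not show a working site. The 30 bases around the match nearest the start are given for the 10 mitotic genes, in the orientation that spells the hexamer, which is in capitals.
Kif11 (chr19:37376351-37376380, minus strand): ccgcgcctcaatTTTGAAaaatggagacga
Kif15 (chr9:122951050-122951079, minus strand): gatggccgcagaTTTGAAtttggcgcccca
Kif20b (chr19:34922353-34922382, plus strand): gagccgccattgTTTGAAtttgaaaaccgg
Kif23 (chr9:61946780-61946809, minus strand): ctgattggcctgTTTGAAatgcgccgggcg
Kif22 (chr7:127042420-127042449, plus strand): ccgcttctctctTTTGAAttaccggggccc
Kif4 (chrX:100626072-100626101, plus strand): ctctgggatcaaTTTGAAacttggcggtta
Kif18b (chr11:102925104-102925133, minus strand): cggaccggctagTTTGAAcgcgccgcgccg
Kifc1 (chr17:33890615-33890644, plus strand): acacccgccactTTTGAAtttcaacctccg
Kif14 (chr1:136467608-136467637, plus strand): ggaggtcctgtcTTTGAAgtctgcagtgtc
Kif2c (chr4:117178858-117178887, plus strand): gcattactcaggTTTGAAagagcagcctgg

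Counted along the gene from its start, the match began at base -19 in Kif11 and Kif15, -17 in Kif22, 2 in Kifc1, 3 in Kif23, 4 in Kif18b, 8 in Kif20b and 20 in Kif4. In Kif14 and Kif2c it lay farther out, at -228 and -103, and the RefSeq promoter of Kif2c starts 3852 bases from the transcript start in the deposited table. Kif18a and Kif2b had no match. The CCAAT box, a common promoter element, was in 8 of the 12 mitotic promoters, 3 of the 11 transport promoters, 4 of the 9 others and 37.4% of all promoters, with its reverse complement counted. Both motifs together were in 7 of the 12 mitotic promoters, none of the 11 transport promoters, 2 of the 9 others and 6.95% of all. The 120 bases before the start of Kif11 and Kif22, which hold both, and of the transport kinesin Kif3b, which holds a CCAAT box only, are shown on the gene's strand with the motifs or their reverse complements in capitals.
Kif11 (chr19:37376262-37376381, plus strand): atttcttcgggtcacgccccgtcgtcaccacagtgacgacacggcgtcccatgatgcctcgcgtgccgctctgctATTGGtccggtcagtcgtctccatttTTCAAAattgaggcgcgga
Kif22 (chr7:127042421-127042540, minus strand): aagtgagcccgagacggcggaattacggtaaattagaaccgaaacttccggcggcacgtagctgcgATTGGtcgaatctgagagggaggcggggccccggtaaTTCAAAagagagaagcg
Kif3b (chr2:153291296-153291415, plus strand): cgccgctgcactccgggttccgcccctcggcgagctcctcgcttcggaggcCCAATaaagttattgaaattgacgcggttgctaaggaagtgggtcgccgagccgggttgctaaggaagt

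As a family, kinesins were lower in M1. Of the 42 motor genes, 32 were high enough for the test, at 1 TPM or more in at least 3 libraries. Among them 27 fell and 3 rose, where 61.5% of all tested genes were called lower and 18.7% higher (limma, Benjamini-Hochberg adjusted p under 0.05 over all genes). After rescaling 24 were lower and 5 higher, where all genes gave 35.4% and 38.1%. In 27 of the 32 every M1 library lay below every M0 library, as in 61.8% of all tested genes, and in 3 every M1 library lay above (19.6% of all). Kifc2, among the lower members in each of these counts, passed the filter through its M0 libraries alone, so its fall was built in. The authors' deposited table, which holds its own log2 fold changes of M1 against M0, called 31 of the 32 the same way as the rescaled values did. Over the 38 motors with a value, that authors' deposited table called 23 lower and 6 higher, where it called 20.7% and 22.9% of all its genes.

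The summed TPM of all motor genes was 609, 661 and 646 in the M0 libraries and 362, 366 and 394 in the M1 libraries. Every M1 library lay below every M0 library. Mitotic kinesins made up 59.6%, 58.5% and 58.4% of that sum in M0 and 52.2%, 52.5% and 52.0% in M1. The transport kinesins' share was 34.5% ± 0.678 in M0 and 42.3% ± 0.0739 in M1 (mean ± SD, n = 3 here and in all such values below). Their own sum was nevertheless lower in M1, at 158 ± 7.36 TPM against 220.2 ± 13.4 TPM. Much of that difference was Kif21b, as the sum without it was 155.2 ± 7.01 TPM in M1 against 174.8 ± 9.58 TPM in M0. These sums are on TPM and were not taken after rescaling, so they do not show the direction on that scale.

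**Figure D1:**
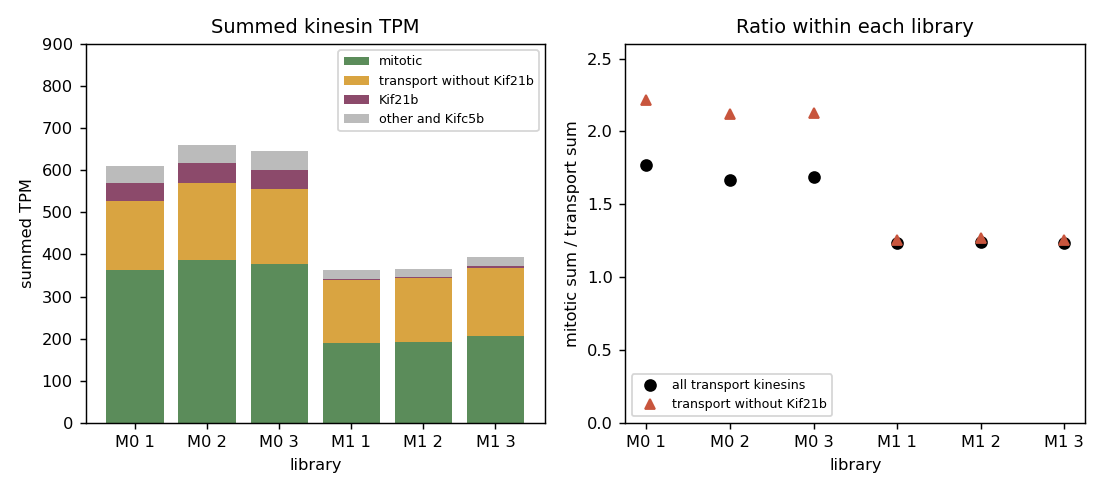
Left, summed TPM of the kinesin classes in each of the 6 libraries, stacked. Right, the mitotic sum divided by the transport sum within each library, with and without Kif21b. The ratio with all members is 1.67 to 1.77 in the M0 libraries and 1.23 to 1.24 in the M1 libraries. The ratio was not taken without Kif5b, the largest part of the transport sum.

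A ratio within a library does not depend on how libraries are scaled against each other. The mitotic sum divided by the transport sum was 1.77, 1.67 and 1.69 in M0 and 1.23, 1.24 and 1.23 in M1. All M1 values were below all M0 values, and the M1 values were closer together. Kif21b alone carried 20.6% ± 0.525 of the transport sum in M0 and 1.80% ± 0.136 in M1. Without it the ratio was 2.15 ± 0.0536 in M0 and 1.26 ± 0.00568 in M1, so the groups lay farther apart in this ratio when Kif21b was left out. Kif5b, which rose, carried 28.5% ± 0.19 of the transport sum in M0 and 45.1% ± 1.13 in M1. Kif5b was the largest part of the transport sum in both groups, and the ratio was not taken without it. The shift of the ratio can therefore not be read as one shared by the transport members. How far it rests on Kif5b was not tested.

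Mitotic kinesins fell together. All 12 tested members fell, 4 of them by at least 2-fold on the fitted scale (11.3% of all tested genes were called lower by that much), and Kif2b was listed at 0. After rescaling 11 of the 12 were lower and Kif4 was not called, with 1 past 2-fold, where 5.77% of all tested genes were. The median log2 change was -0.94, and -0.60 after rescaling, beside -0.31 and 0.02 for all tested genes. The members' changes lay close to each other, from -1.33 to -0.40, with an SD of 0.25 across the 12 genes. Each of the 12 had its 3 M1 libraries below its 3 M0 libraries, as did 61.8% of all tested genes.

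**Figure D2:**
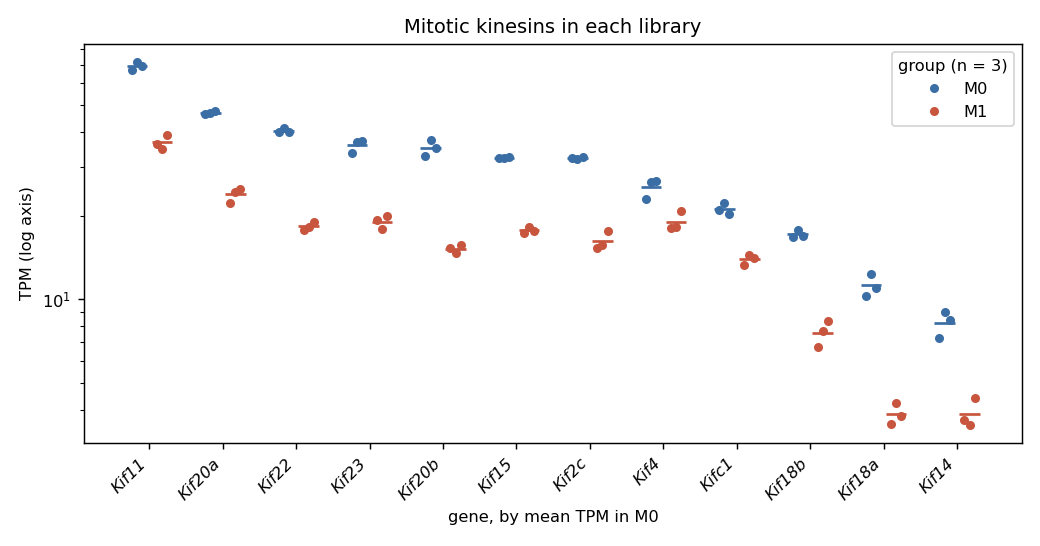
TPM of the 12 tested mitotic kinesins in each of 3 M0 and 3 M1 libraries, on a log axis, with genes ordered by their M0 mean; points are libraries and short lines are means. For each of the 12 genes the M1 points lie below the M0 points, from Kif11 at the top of the range to Kif14 at the bottom.

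Spindle assembly starts with motors that push or pull on the microtubules of the spindle. Kif11, which slides antiparallel microtubules apart to make the spindle bipolar, was the most abundant kinesin in M0, with 66.8, 71.6 and 69.2 TPM, and had 36.4, 34.8 and 39.1 TPM in M1. The groups were far apart against a spread of a few TPM, and its log2 change was -0.90 (SE 0.05), or -0.54 after rescaling. Kif15, which can take over part of the work of Kif11, fell from 32.4 ± 0.223 to 17.7 ± 0.387 TPM. Kifc1, a minus-end-directed motor that draws spindle poles together, had 21.02, 22.2 and 20.4 TPM in M0 and 13.3, 14.4 and 14.1 TPM in M1. Its groups did not overlap, but its log2 change of -0.57 (SE 0.06), -0.23 after rescaling, was among the smallest of the class. Kifc1 shares 38.6% of its 50-base stretches (GENCODE M21 transcripts) with Kifc5b, which fell from 10.9 ± 0.947 to 5.12 ± 0.111 TPM, so the split of reads between these copies is uncertain.

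Chromosome movement depends on motors at kinetochores, on chromosome arms and at microtubule ends. Kif18a, which dampens the swings of chromosomes at the spindle equator, had 10.3, 12.4 and 10.999 TPM in M0 and 3.56, 4.22 and 3.79 TPM in M1. This was the largest fitted fall among the mitotic members, -1.33 (SE 0.08), or -1.02 after rescaling, with no overlap between groups. Kif18b, which shortens astral microtubules, fell from 17.2 ± 0.56 to 7.58 ± 0.842 TPM. Kif22, a chromokinesin that pushes chromosome arms away from the poles, had 40.1, 41.4 and 40.1 TPM in M0 and 17.8, 18.2 and 18.9 TPM in M1. Its replicates lay within 1.37 TPM of each other, far less than the distance between groups (log2 change -1.10, SE 0.05, and -0.75 after rescaling). Kif2c, a depolymerase that corrects faulty attachments, had 32.3, 32.1 and 32.5 TPM in M0 and 15.3, 15.7 and 17.6 TPM in M1. The groups again stood apart, with a log2 change of -0.96 (SE 0.06), and -0.61 after rescaling.

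Kif4, a chromokinesin that also organises the central spindle, was the mitotic member that changed least. It had 23.0, 26.5 and 26.7 TPM in M0 and 18.045, 18.2 and 20.8 TPM in M1. The groups did not overlap on TPM (log2 change -0.40, SE 0.07), but after rescaling the change of -0.05 was not called, and the authors' deposited table gave -0.05, also without a call. Exons of Pdzd11, on the opposite strand, overlap 15.1% of the exon bases of Kif4, and Pdzd11 rose from 42.4 ± 2.005 to 48.9 ± 2.01 TPM. The sources used here do not say whether counting used strand, and the part of shared reads in the value of Kif4, and of the other members with such overlaps named below, was not tested.

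Cytokinesis motors gather at the central spindle and complete the separation of the daughter cells. Kif20a, which carries the chromosomal passenger complex there, had 46.7, 46.8 and 47.6 TPM in M0 and 22.3, 24.4 and 24.9 TPM in M1. Its groups were well separated, with a log2 change of -0.95 (SE 0.05), and -0.60 after rescaling. Cdc23, whose exons on the opposite strand overlap 31.8% of those of Kif20a, fell as well, from 22.4 ± 0.986 to 13.9 ± 1.09 TPM. Kif20b had 32.8, 37.5 and 35.2 TPM in M0 and 15.3, 14.7 and 15.6 TPM in M1. These values did not overlap, and the log2 change of -1.16 (SE 0.06), -0.81 after rescaling, was the largest of the cytokinesis motors. Kif23, the motor subunit of centralspindlin, had 33.8, 36.8 and 37.1 TPM in M0 and 19.3, 17.96 and 19.9 TPM in M1. Every M1 library was again lower (log2 change -0.88, SE 0.06, and -0.53 after rescaling). Kif14, which acts with citron kinase, fell from 8.22 ± 0.877 to 3.86 ± 0.468 TPM.

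Proteins that work with the mitotic kinesins moved the same way. Of 15 such genes, all 15 fell (61.5% of all tested genes were lower), and after rescaling 14 were lower (35.4% of all) and Cenpe, the kinetochore kinesin whose symbol lies outside the family's naming, was not called. Their median log2 change was -0.68, and -0.33 after rescaling. The largest fall was that of Aurkb, the kinase of the passenger complex, from 68.8 ± 1.60 to 29.8 ± 2.38 TPM. Racgap1, the partner of Kif23 in centralspindlin and the most abundant of the list in M0, fell from 108 ± 2.46 to 60.0 ± 4.63 TPM.

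Some transport kinesins rose and others fell. Their shares were near those of all genes on TPM, but after rescaling a larger share of them was lower than of all genes. Of 15 tested members 10 fell, 3 rose and 2 were not called, beside 61.5% of all tested genes lower and 18.7% higher. After rescaling 9 were lower, 5 higher and 1 not called, beside 35.4% and 38.1%. Kifc2, among the lower members on both scales, passed the filter through its M0 libraries alone, so its fall was built in. The median log2 change of the 15 was -0.59, and -0.26 after rescaling, beside -0.31 and 0.02 for all tested genes. On each scale 4 of the 15 were lower by at least 2-fold, beside 11.3% of all tested genes on TPM and 5.77% after rescaling. The changes ran from -3.60 to 0.30 with an SD of 1.07 across the 15 genes, a range of 3.90 against 0.93 in the mitotic class. All tested genes had an SD of 0.98, near that of the transport kinesins. The difference between the class medians, mitotic minus transport, was -0.35 on the TPM scale.

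**Figure D3:**
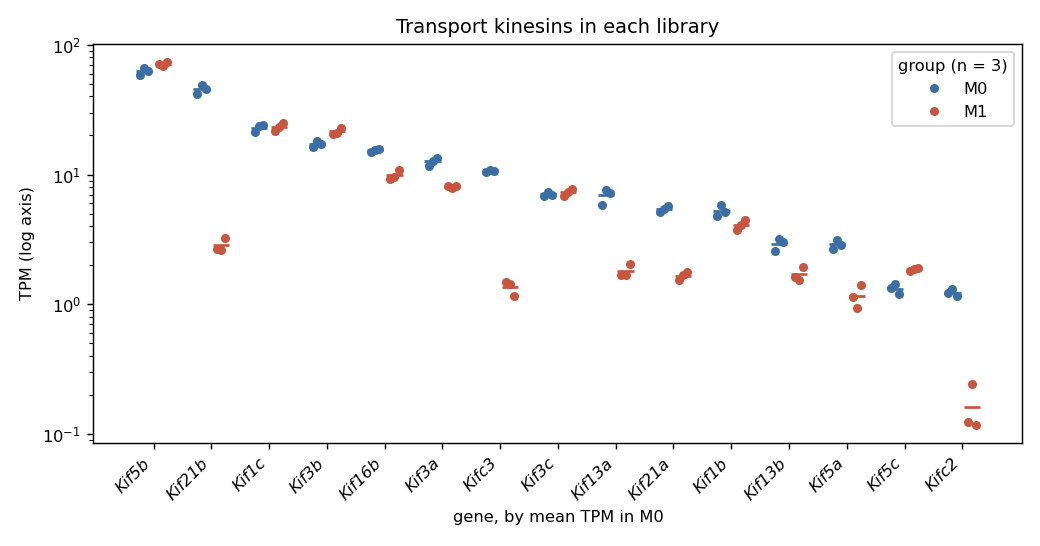
TPM of the 15 tested transport kinesins in each of 3 M0 and 3 M1 libraries, on a log axis, with genes ordered by their M0 mean; points are libraries and short lines are means. Kif21b drops from second place to 2.62 to 3.25 TPM, Kif5b stays at the top, and the points of Kif1c and Kif3c overlap between groups.

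The largest fall of any kinesin was that of Kif21b, a motor of neurons and immune cells that also limits microtubule growth. Kif21b (NM_001039472, chromosome 1, 136131390 to 136178001, mm10) had 41.4, 49.1 and 46.0 TPM in M0 and 2.67, 2.62 and 3.25 TPM in M1. The lowest M0 library was far above the highest M1 library. The mean was 16.0-fold lower in M1, resting on 18203 reads in M0 and 1267 in M1, with a log2 change of -3.60 (SE 0.08) and -3.28 after rescaling. By mean TPM it was the 4th of the 42 motors in M0 and the 22nd in M1. The related Kif21a fell 3.27-fold, from 5.44 ± 0.281 to 1.67 ± 0.124 TPM. Within a library, Kif21b stood at 8.02 to 9.01 times the TPM of Kif21a in M0 and at 1.56 to 1.82 times in M1.

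Kifc3, a minus-end-directed motor linked to the Golgi and to cell junctions, had 10.4, 10.9 and 10.6 TPM in M0 and 1.48, 1.44 and 1.17 TPM in M1. Its groups lay far apart, with a log2 change of -2.30 (SE 0.08), and -2.03 after rescaling. Kifc2, of the same minus-end-directed kind, fell from 1.23 ± 0.0763 to 0.163 ± 0.0714 TPM. It passed the filter through its M0 libraries alone, so a fall was built into its being tested. Its M1 level rested on 27 reads over the 3 libraries, and its log2 change of -0.94 on the log2(TPM + 1) scale understates a 7.56-fold difference of means. The authors' deposited table put the fall of Kifc2 at -2.80 on the log2 scale.

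Kif13a, which carries cargo of recycling endosomes, had 5.85, 7.66 and 7.24 TPM in M0 and 1.69, 1.67 and 2.05 TPM in M1. Every M1 library was far below the M0 libraries (log2 change -1.49, SE 0.10, and -1.22 after rescaling). Its relative Kif13b fell less, from 2.92 ± 0.32 to 1.70 ± 0.204 TPM. Kif16b, which moves early endosomes, fell from 15.3 ± 0.396 to 9.90 ± 0.876 TPM.

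Kif1b and Kif1c, motors for vesicles and organelles, were near the typical gene or above it. Kif1b had 4.78, 5.85 and 5.15 TPM in M0 and 3.74, 4.08 and 4.48 TPM in M1. The groups came close without overlapping and the gene was called lower on TPM (log2 change -0.29, SE 0.09), but after rescaling the change was 0.0053, with the opposite sign and no call. Kif1c, which has been described at the podosomes of macrophages, had 21.2, 23.6 and 24.0 TPM in M0 and 21.5, 23.2 and 25.0 TPM in M1. These values overlapped and the change of 0.02 (SE 0.07) was not called, turning to -0.04 when M0 replicate 1 or M1 replicate 3 was left out, whereas after rescaling Kif1c was higher by 0.37. Kif1a, mostly neuronal, stayed under the filter at 26 reads over the M0 libraries and 79 over the M1 libraries, and was called higher in the authors' deposited table, at 1.80 on the log2 scale.

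The subunits of heterotrimeric kinesin-II did not move together. In this motor Kif3a pairs with Kif3b or Kif3c and binds the adaptor subunit Kifap3. Kif3a had 11.7, 12.7 and 13.5 TPM in M0 and 8.12, 7.92 and 8.14 TPM in M1. All M1 libraries were lower (log2 change -0.59, SE 0.07, and -0.26 after rescaling). Kif3b had 16.3, 18.2 and 17.2 TPM in M0 and 20.5, 21.01 and 22.9 TPM in M1. All its M1 libraries were higher (log2 change 0.30, SE 0.06, and 0.65 after rescaling). Kif3c had 7.02 ± 0.247 and 7.29 ± 0.425 TPM, with overlapping groups and no call on TPM, and was higher by 0.37 after rescaling, with 43.6% of its exon bases overlapped by genes on the opposite strand. Of these, 1110002L01Rik had 4.66 ± 0.405 and 4.71 ± 0.364 TPM and was not called. Within each library the TPM of Kif3b over that of Kif3a was 1.28 to 1.43 in M0 and 2.52 to 2.82 in M1. Kifap3 fell from 18.3 ± 0.439 to 12.3 ± 0.407 TPM.

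The heavy chains of conventional kinesin also went separate ways. Kif5b, the form found in most tissues, had 58.9, 66.0 and 63.3 TPM in M0 and 71.0, 69.2 and 73.5 TPM in M1. The lowest M1 library exceeded the highest M0 library (log2 change 0.18, SE 0.05, and 0.54 after rescaling), and Kif5b was the second kinesin by level in M0 and the most abundant in M1. Kif5c had 1.34, 1.44 and 1.19 TPM in M0 and 1.80, 1.87 and 1.90 TPM in M1. It rose without overlap from a low level, with a log2 change of 0.30 (SE 0.08), and 0.52 after rescaling. Kif5a, which like Kif5c is known mainly from neurons, fell from 2.90 ± 0.239 to 1.16 ± 0.229 TPM. Kif5b stood at 0.882 to 0.923 times the TPM of Kif11 in the M0 libraries and at 1.88 to 1.99 times in the M1 libraries, so the order of the most abundant transport and mitotic motors was reversed in every M1 library.

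**Figure D4:**
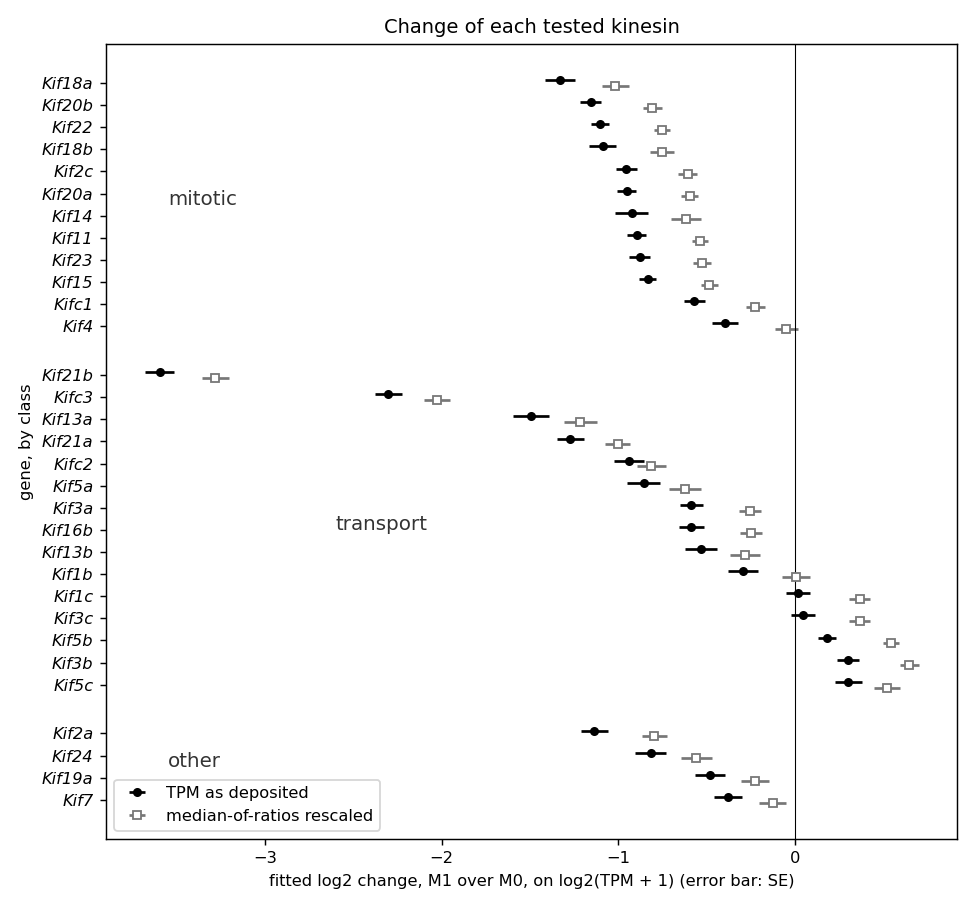
Fitted log2 change of M1 over M0 for 31 tested kinesins (Kifc5b is left out), with its SE, on deposited TPM (filled circles) and after median-of-ratios rescaling (open squares), grouped by class. Mitotic members lie between -1.33 and -0.40 on TPM, transport members between -3.60 and 0.30, and rescaling moves all of them up.

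Light chains and cargo adaptors of the transport kinesins showed less of this spread, with an SD of 0.38 across genes. Of 15 tested genes 14 fell and none rose (61.5% and 18.7% of all tested genes), and after rescaling 6 were lower and 2 higher (35.4% and 38.1% of all). Their median log2 change of -0.33 was close to the -0.31 of all tested genes. The largest fall was that of the light chain gene Klc4, from 17.1 ± 1.05 to 4.94 ± 0.204 TPM, and the most abundant, Arl8b, a small GTPase that recruits kinesin to lysosomes, fell from 87.3 ± 2.19 to 66.0 ± 3.62 TPM, with a change of -0.04 and no call after rescaling. Cytoplasmic dynein and dynactin, which move cargo the opposite way, had 15 of 23 tested genes lower and 1 higher, with a median log2 change of -0.27. The share of lower genes was near that of all genes, and after rescaling 4 were lower and 11 higher, beside 35.4% and 38.1% of all. The 1 that rose was the heavy chain Dync1h1, from 45.2 ± 6.46 to 65.3 ± 8.94 TPM. Dynll2 had the largest fall, from 70.6 ± 5.00 to 35.7 ± 0.978 TPM, and the most abundant, Dynlrb1, fell from 226 ± 6.70 to 188 ± 9.15 TPM but had a change of 0.10, with the opposite sign and no call, after rescaling.

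Kinesins with other or mixed roles were lower where they could be tested. All 4 tested members of 11 fell, beside 61.5% of all tested genes, and 3 were also lower after rescaling, beside 35.4%. Kif2a, a depolymerase that acts in interphase and at spindle poles, had 21.3, 21.4 and 22.8 TPM in M0 and 8.60, 8.98 and 10.7 TPM in M1. The groups were far apart (log2 change -1.14, SE 0.08, and -0.80 after rescaling), although the exons of Dimt1, which rose, overlap 13.2% of its exon bases on the opposite strand. Kif24, a centriolar depolymerase, had 3.70, 3.71 and 3.84 TPM in M0 and 1.75, 1.41 and 1.96 TPM in M1. No M1 library reached the M0 range (log2 change -0.82, SE 0.09, and -0.56 after rescaling).

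Kif19a, which sets the length of cilia, had 2.55, 3.06 and 3.05 TPM in M0 and 1.70, 1.93 and 1.73 TPM in M1. It was lower on both scales (log2 changes -0.48, SE 0.08, and -0.23) but not called in the authors' deposited table, where it had -0.33. Kif7, of the Hedgehog pathway, had 2.69, 2.74 and 2.61 TPM in M0 and 1.85, 1.64 and 2.02 TPM in M1. The groups did not overlap on TPM (log2 change -0.38, SE 0.08), while after rescaling the change of -0.13 was not called. Genes on the opposite strand, Ticrr among them, overlap 20.3% of the exon bases of Kif7, and Ticrr fell from 6.28 ± 0.539 to 2.43 ± 0.169 TPM.

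The remaining 10 motor genes stayed under the filter. Kif2b, Kif12 and Kif26a were at 0 reads in all 6 libraries, and so was Kif4-ps, which in the shallowest library allows up to 0.0999, 0.101, 0.0328 and 0.0618 TPM in that order (3 reads, counting error only). Kif1a, Kif6, Kif9, Kif17, Kif26b, Kif27 and Kif28 reached at most 0.46 TPM in any library, on 4 to 105 reads over all 6. Of the 3 symbols that are no motor, Kif1bp fell from 18.6 ± 0.161 to 10.8 ± 0.827 TPM (log2 change -0.73, SE 0.06, and -0.39 after rescaling), and Kif16bos had 7 reads in all.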

How the data were processed

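Poly(A) RNA of 3 M0 and 3 M1 samples was measured. Tools in the submitters' processing notes were STAR 2.7.5a, HOMER 4.11.1, bcl2fastq and DESeq2, and the build was mm10; their order is not stated. The authors deposited TPM per gene, per the file headers, and a second table with log2 values (transform not stated), which were not used, and with log2 fold changes, p-values and adjusted p-values. Its fold changes had the sign of M1 minus M0 for 1850 of 1850 genes that differed by over 1, and 34 of the 44 shared members had the same transcript in both tables.

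limma 3.58.1 (R 4.3.3, trend, robust) was fitted to log2(TPM + 1) of the 11297 genes that reached 1 TPM in 3 or more libraries, with group as the only term, and p-values were adjusted by Benjamini-Hochberg over these genes (called under 0.05). TPM times length was a whole multiple of a library-specific value, within 0.1, for 100.0% of the values tested, which gave reads. These cover counting error only, at 26.5 to 34.4 reads per TPM for 2000 bases. For rescaling, each library was divided by the median ratio of its TPM to the geometric mean over libraries, over genes above 0 in all 6. The fit was tested on simulated data in which a small part of the genes was changed, in random directions. That simulation held no shift of the typical gene such as the one seen here on TPM.

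The members, classes and gene lists were chosen with earlier results of these data known. Per-library values are given for the 3 largest falls, 2 largest rises, highest M0 level and smallest change in each class, and for 9 genes chosen by name. In related lists, means are given for the largest fall, largest rise and most abundant gene. Kif1a, Kif3c, Kifc2 and other members were described after their values were seen.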

Additional observations from a re-analysis of the deposited data

How the results depend on the processing

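On TPM, the counts of lower and higher kinesins (27 and 3) and of lower mitotic and transport members (12 and 10) were the same with each library left out in turn. Median-of-ratios rescaling, and limma-voom on recovered reads with that scaling (chosen after seeing the data), both gave 5 higher kinesins, 5 of them transport. They moved the mitotic median to -0.60 and -0.65 and the transport median to -0.26 and -0.30. The difference between the medians, -0.35, was -0.40 to -0.33 with a library left out, and -0.42 with Kif21a and Kif21b counted as other and Kif2a as mitotic. The mitotic share of summed TPM in M1 over that in M0, 0.888, ranged from 0.885 to 0.894 with a library left out. Among single genes the sign of Kif1b turned with rescaling (0.0053), and that of Kif1c without M1 replicate 3 (-0.037) or M0 replicate 1 (-0.037; range -0.037 to 0.0675 with a library left out); the cause was not tested. A pseudocount of 0.1, no filter and a fit without robust variances changed no call among the 32. Without the filter, however, the counts over all motors were 27 lower and 4 higher, and all 4 that were higher were transport members. Same-numbered samples showed no shared deviation (correlations 0.07, -0.08 and 0.04). With so few libraries this cannot exclude that same-numbered samples were handled together. With the replicate block 27 kinesins were lower and 3 higher, as without it. Members at few reads, such as Kifc2 in M1, are limited by depth.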

Other observations

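Other motifs were counted in the same promoters, on both strands. TTCNNNGAA, the interferon-γ activated site, was in none of the 12 mitotic, none of the 11 transport and 1 of the 9 other kinesin promoters (Kif26b), against 8.30% of all 32851 promoters. A match of it can overlap TTTGAA. The E2F-type strings TTCCCGC and TTGGCGC were in 0 and 2 of the 12 mitotic promoters (Kif15 and Kif18a for the latter), against 4.60% and 2.45% of all. No match says only that these letters are not in these windows. Kif18a, the mitotic member with the largest fitted fall, was the tested mitotic kinesin with a promoter in the table and neither TTTGAA nor CCAAT.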
